A study of Mus musculus with 27 samples.

Results

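The 6 retinal libraries described here hold the cells of embryonic day 15 (E15) mouse retina that carried alkaline phosphatase (AP) from the Brn3b locus, and the retinal cells left behind when those cells were pulled out. They were chosen by their labels, 4 AP-positive libraries and 2 unbound ones out of 27 libraries in the series. The study profiled retinal ganglion cells that express transcription factors of the Brn3 family, with and without the factor itself, at E15 and at postnatal day 3 (P3), together with pieces of P3 brain. Dissociated retina was mixed with magnetic beads that carried an antibody against AP, the bound cells were lysed on the beads, and the unbound suspension, called SN here, was kept as the control.

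The AP-positive libraries came from Brn3bAP/KO retinas (KO cells, n = 2) and from Brn3bAP/WT retinas (HET cells, n = 2), both on C57Bl/6. All 4 therefore carry an allele in which AP reports the Brn3b locus, and the HET cells keep a single normal Brn3b allele, so that neither group is wild type. The SN consists of 1 library from Brn3bAP/KO retina (KO SN) and 1 from Brn3bAP/WT retina (HET SN), and SN of both genotypes together served as the control group (n = 2). No label gives the number of animals behind a library or says that replicates came from separate litters, so the p-values below measure a spread between libraries that may be technical. That spread was estimated over all 18 retinal libraries of the series, the 6 here included, with SN of both genotypes pooled. The source names of these 6 libraries mention Brn3a and P3, whereas their titles, genotype entries and age entries give Brn3b and E15, and the titles and entries were used.

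Retinal ganglion cells are the only neurons that send axons out of the eye, and at E15 most of them have recently left the cell cycle and are extending axons along the optic nerve. Brn3b, the product of Pou4f2, is a POU-domain factor that ganglion cell precursors switch on soon after their last division, downstream of the proneural factor Atoh7. In mice that lack it, many ganglion cells are lost and the remaining ones have defects of axon growth and subtype identity. Around them at this age the retina is largely made of dividing progenitors, with newborn amacrine cells, horizontal cells and cone precursors among them.

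Levels are given as counts per 1000000 (CPM) of the estimated counts that the authors deposited, over TMM-scaled library sizes. Differences are log2 fold changes with their standard error from edgeR's quasi-likelihood test, fitted over the 18 retinal libraries of the series, and a gene was called when its Benjamini-Hochberg adjusted p over all 16954 genes tested was below 0.05. Against SN, 4467 genes were called in AP-positive cells, 26.3% of those tested. Of these, 2267 were higher (13.4% of the genes tested) and 2200 were lower (13% of the genes tested), and the median difference over all genes was -0.01. All 4 AP-positive libraries lay above both SN libraries for 3201 genes (18.9%) and below both for 3722 genes (22%). The number called was 686 without the HET SN library, 2356 without KO replicate 1, 2528 without HET replicate 1 and 866 with the 6 E15 libraries fitted alone.

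The 6 libraries held between 28905675 and 37394655 estimated counts. The cells bound to the beads were not ganglion cells alone. The 31 microglia and macrophage markers summed to 1399 and 1581 CPM in KO cells and 1609 and 2084 CPM in HET cells, against 28.7 and 31.1 CPM in KO and HET SN. HET replicate 2 stood apart from the other AP-positive libraries by its dividing cells, with 3995 CPM summed over 42 mitosis genes, against 1588 CPM in HET replicate 1 and 1410 and 2448 CPM in KO cells. In SN the same genes summed to 5156 and 6797 CPM. Y-linked transcripts also differed between libraries and were not balanced between genotypes: 4 of them summed to 39.4 and 90.0 CPM in KO cells, 228 and 175 CPM in HET cells, and 34.7 and 374 CPM in KO and HET SN. Because these are bulk libraries, fewer cells of a type and less RNA per cell cannot be told apart in any value below.

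Pou4f2, the gene whose locus drives AP, was measured at 65.7 and 63.1 CPM in KO cells, 325 and 224 CPM in HET cells and 22.9 and 53.8 CPM in KO and HET SN. HET cells were the highest, KO cells were lower than HET cells but still above both SN libraries, and KO SN was the lowest of all. In HET cells it rose over SN by 2.84 ± 0.38, adjusted p = 0.000258, while KO cells differed from SN by 0.75 ± 0.36, adjusted p = 0.146. In KO cells relative to HET cells it fell by 2.09 ± 0.37, adjusted p = 0.0094. The deposited counts are given per transcript, and where on Pou4f2 the remaining KO reads lie was not analysed here. The family member Pou4f1, which encodes Brn3a, had 73.5 and 35.6 CPM in KO cells, 233 and 82.4 CPM in HET cells and 75.4 and 109 CPM in KO and HET SN, and its values overlapped between AP-positive cells and SN. Pou4f3, which encodes Brn3c, had 0.761 and 0.519 CPM in KO cells, 3.24 and 0.349 CPM in HET cells and 3.83 and 3.82 CPM in KO and HET SN and in AP-positive cells fell by 1.83 ± 0.56, adjusted p = 0.029.

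**Figure D1:**
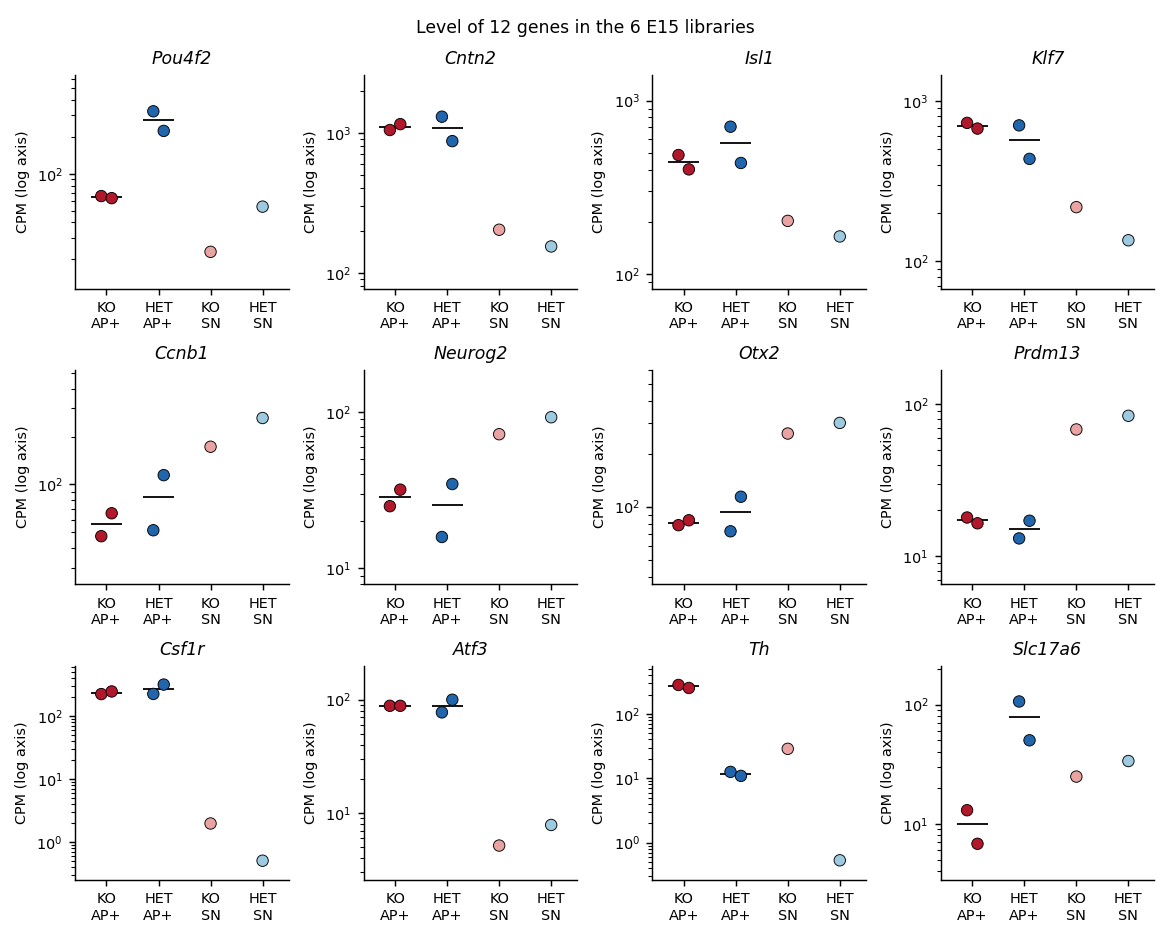
CPM (log axis) of 12 genes in each of the 6 E15 libraries, with KO cells, HET cells and SN from left to right, 1 dot for each library and a black line at the mean of each pair. Pou4f2 is highest in HET cells, Cntn2, Isl1, Klf7, Csf1r and Atf3 are higher in all 4 AP-positive libraries than in both SN libraries, Ccnb1, Neurog2, Otx2 and Prdm13 are lower, and Th and Slc17a6 separate KO cells from HET cells.

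Markers of retinal ganglion cells were higher in the AP-positive cells. Of 24 markers tested, 14 rose over SN and none fell, with a median log2 difference of 1.11, and all 4 AP-positive libraries exceeded both SN libraries for 14 of them. Without HET SN 2 of the 24 rose, and with the E15 libraries alone 5 did. Summed, the markers reached 12440 and 10590 CPM in KO cells and 17520 and 10310 CPM in HET cells, against 5954 and 4110 CPM in KO and HET SN. SN still held ganglion cell transcripts, and KO SN held more of them than HET SN.

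Cntn2, a contactin that axons carry on their surface, had 1046 and 1152 CPM in KO cells, 1302 and 872 CPM in HET cells and 203 and 154 CPM in KO and HET SN. Every AP-positive library was above 4 times the level of either SN library, and the rise was 2.61 ± 0.26, adjusted p = 1.24e-05. Isl1, a LIM-homeodomain factor that works beside Brn3b, had 485 and 401 CPM in KO cells, 707 and 437 CPM in HET cells and 202 and 165 CPM in KO and HET SN. Its AP-positive and SN values did not overlap either, and it rose by 1.46 ± 0.31, adjusted p = 0.00564. Elavl4, an RNA-binding protein of neurons, had 426 and 350.4 CPM in KO cells, 817 and 514 CPM in HET cells and 196 and 163 CPM in KO and HET SN and rose by 1.5 ± 0.25, adjusted p = 0.00147. Gap43, a growth cone protein, had 911 and 734 CPM in KO cells, 1521 and 803 CPM in HET cells and 437 and 366 CPM in KO and HET SN and rose by 1.28 ± 0.30, adjusted p = 0.00969. Thy1, a surface protein widely used to purify ganglion cells after birth, was low in every library, with 0.919 and 0.275 CPM in KO cells, 2.58 and 0.489 CPM in HET cells and 0.993 and 2.51 CPM in KO and HET SN, and was not called.

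Taken separately against the same SN libraries, HET cells had 2236 genes called (13.2% of those tested, 9.35% higher and 3.84% lower) and KO cells had 4028 (23.8%, with 12.3% higher and 11.5% lower). Each list count against SN is to be set beside these shares, or beside 13.4% higher and 13% lower for AP-positive cells. Among the ganglion cell markers, 19 rose and none fell in HET cells, while in KO cells 10 rose and 3 fell. The 3 that fell in KO cells were Sncg, Ebf1 and Slc17a6. Sncg, which encodes gamma-synuclein, a protein abundant in adult ganglion cells, had 44.8 and 18.9 CPM in KO cells, 590.0 and 324 CPM in HET cells and 117 and 116 CPM in KO and HET SN. The KO values lay below both SN libraries and the HET values above them, with -1.87 ± 0.46, adjusted p = 0.0127 for KO cells and 1.97 ± 0.46, adjusted p = 0.0143 for HET cells. Ebf1, a helix-loop-helix factor of postmitotic neurons, had 38 and 17.8 CPM in KO cells, 358 and 169 CPM in HET cells and 60.6 and 67.2 CPM in KO and HET SN, a difference of -1.19 in KO cells and 2.04 in HET cells. Slc17a6, the vesicular transporter that makes ganglion cells glutamatergic, had 13 and 6.78 CPM in KO cells, 106 and 50.1 CPM in HET cells and 24.8 and 33.6 CPM in KO and HET SN, again below SN in KO cells and above SN in HET cells. The count of ganglion cell markers called in HET cells was 3 without HET replicate 1 or without HET SN. In KO cells 3 rose without HET SN or without KO replicate 1, and 1 when KO cells were set against KO SN alone. The 3 that fell in KO cells were not called without HET SN or without KO replicate 2.

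Transcription factors of the Brn3 network and of ganglion cell subtypes moved less uniformly. Of 44 tested, 14 rose and 1 fell in AP-positive cells (median 0.48), with 16 higher and 1 lower in HET cells and 13 higher and 7 lower in KO cells. The 14 became 3 without HET SN and 8 without HET replicate 1 or KO replicate 1. In HET cells 6 rose without HET SN and 7 without HET replicate 1. In KO cells 7 rose without HET SN or KO replicate 1, and 2 fell without HET SN or KO replicate 2 and 4 without KO replicate 1. Klf7, a zinc finger factor of growing axons, was called higher in both genotypes, with 728 and 671 CPM in KO cells, 702 and 434 CPM in HET cells and 218 and 135 CPM in KO and HET SN. No AP-positive value overlapped SN, and the rise was 1.84 ± 0.28, adjusted p = 0.00073. Myt1, a zinc finger factor of newborn neurons, had 411 and 411 CPM in KO cells, 415 and 269 CPM in HET cells and 162 and 139 CPM in KO and HET SN and rose by 1.32 ± 0.24, adjusted p = 0.0024. Mef2c, a MADS-box factor, had 27.1 and 24.7 CPM in KO cells, 26.3 and 25.9 CPM in HET cells and 0.936 and 0.335 CPM in KO and HET SN and rose by 5.35 ± 0.35, adjusted p = 4.43e-07. Mef2c is also expressed by microglia, whose markers rose in the same libraries, and the part of that in its rise was not tested. Barhl2, a homeodomain factor of amacrine and ganglion cell precursors, had 98.4 and 99.3 CPM in KO cells, 49.5 and 32.2 CPM in HET cells and 38.9 and 20.2 CPM in KO and HET SN.

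Transcripts of the axonal skeleton were higher in the AP-positive cells of both genotypes. Of 29 axonal cytoskeleton genes 25 rose and none fell, with a median of 1.08, and 20 rose in HET cells and 21 in KO cells. All 4 AP-positive libraries exceeded both SN libraries for 23 of the 29. Map1b, the microtubule-associated protein of growing axons, had 3409 and 3231 CPM in KO cells, 2931 and 2058 CPM in HET cells and 1127 and 593 CPM in KO and HET SN, a rise of 1.74 ± 0.28, adjusted p = 0.00102. Tuba1a, an alpha-tubulin of young neurons, was the most abundant gene of the list, with 11280 and 10260 CPM in KO cells, 12030 and 7837 CPM in HET cells and 5963 and 4557 CPM in KO and HET SN, and it rose by 0.97 ± 0.21, adjusted p = 0.00604. Ank2, which anchors membrane proteins to the axonal skeleton, had 905 and 864 CPM in KO cells, 1389 and 1038 CPM in HET cells and 479 and 458 CPM in KO and HET SN and rose by 1.15 ± 0.18, adjusted p = 0.00102. Its lowest AP-positive value was above its highest SN value, as it was for Map1b and Tuba1a. Summed over the list, the levels were 40830 and 35780 CPM in KO cells, 45330 and 28910 CPM in HET cells, and 21310 and 15280 CPM in KO and HET SN. Other abundant genes called higher with at least a 2-fold change were Tubb2b, Stmn2, Ina, Crmp1 and Dcx, which encode a beta-tubulin, a tubulin-binding protein, an intermediate filament, a semaphorin effector and a microtubule stabiliser. This count rested on SN of HET retina: without that library 2 of the 29 rose, in HET cells 1 rose without it or without HET replicate 1, and in KO cells 4 rose without it and 6 without KO replicate 1.

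Motor proteins that carry cargo along the axon followed. Of 15 kinesin and dynein genes 11 rose and none fell (median 1.00), with 10 higher in HET cells and 11 in KO cells. Without HET SN these counts were 3 in AP-positive, 2 in HET and 2 in KO cells, with 2 in HET cells without HET replicate 1 and 3 in KO cells without KO replicate 1. Kif21b, a kinesin of neurites, had 455 and 401 CPM in KO cells, 384 and 297 CPM in HET cells and 207 and 104 CPM in KO and HET SN and rose by 1.3 ± 0.24, adjusted p = 0.00274. Dync1h1, the dynein heavy chain that powers transport back to the cell body, had 919 and 875 CPM in KO cells, 987 and 845 CPM in HET cells and 549 and 292 CPM in KO and HET SN and rose by 1.11 ± 0.21, adjusted p = 0.00331. Kif1b and Kif3c, which move vesicles away from the cell body, rose by 0.82 and 0.96.

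Guidance receptors divided. Of 39 tested, 12 rose and 2 fell (median 0.21), with 9 higher and 2 lower in HET cells and 12 higher and none lower in KO cells. Without HET SN 5 rose in AP-positive, 3 in HET and 5 in KO cells, and without HET replicate 1, 4 rose in HET cells. Nrp1, the neuropilin that binds class 3 semaphorins and VEGF, had 136 and 128 CPM in KO cells, 160.1 and 89.3 CPM in HET cells and 40.3 and 34.2 CPM in KO and HET SN, with no overlap, and rose by 1.78 ± 0.19, adjusted p = 3.11e-05. Unc5c, a netrin receptor that mediates repulsion, had 92.7 and 77.7 CPM in KO cells, 133 and 71.8 CPM in HET cells and 33.1 and 28.4 CPM in KO and HET SN and rose by 1.60 ± 0.28, adjusted p = 0.00184. Plxna1, the plexin that signals for neuropilins, had 418 and 399.7 CPM in KO cells, 244 and 217 CPM in HET cells and 159 and 69.3 CPM in KO and HET SN, higher in KO than in HET cells, and rose by 1.43 ± 0.28, adjusted p = 0.00387. Dcc, the netrin receptor that draws ganglion cell axons into the optic disc, had 417 and 421 CPM in KO cells, 182 and 157 CPM in HET cells and 104 and 38.9 CPM in KO and HET SN. All 4 AP-positive values exceeded SN, but the KO values were the highest and the HET SN value was far below that of KO SN. Dcc rose by 2.55 ± 0.32, adjusted p = 0.000151 in KO cells and by 1.25 ± 0.31, adjusted p = 0.0197 in HET cells. The 2 that fell were Epha3 and Epha8, ephrin receptors, by log2 differences of -1.17 and -0.74. No guidance receptor fell without HET SN, HET replicate 1 or KO replicate 1, 1 did without KO replicate 2 or KO SN, and 5 without HET replicate 2.

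Among 35 guidance ligands, 9 rose and 1 fell (median 0.44), and 12 rose and 1 fell in KO cells against 3 and 1 in HET cells. Over all genes tested, 13.4% rose in AP-positive cells, 12.3% in KO cells and 9.35% in HET cells. No ligand rose in AP-positive cells without HET SN, 5 did without HET replicate 1 or KO replicate 1, and 14 without KO SN. In KO cells 2 rose without HET SN or KO replicate 1. In HET cells none rose without HET SN or HET replicate 1, 7 without HET replicate 2 and 12 without KO SN. Sema6c and Sema6d, transmembrane semaphorins, rose by 1.3 and 0.99, and Sema6c had 148 and 129 CPM in KO cells, 128 and 87.9 CPM in HET cells and 63.6 and 35.2 CPM in KO and HET SN. Slit1, a secreted repellent, had 194 and 175 CPM in KO cells, 68.5 and 55.2 CPM in HET cells and 68.4 and 24.9 CPM in KO and HET SN, so that only KO cells were above both SN libraries, and it rose in KO cells by 1.98 ± 0.40, adjusted p = 0.00422.

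Of 63 adhesion and recognition molecules 21 rose and 7 fell (median 0.21), with 17 and 4 in HET cells and 17 and 11 in KO cells. Without HET SN 5 rose and 3 fell in AP-positive cells. In HET cells 6 rose without HET SN and 8 without HET replicate 1, with 2 lower in each case. In KO cells 10 rose without HET SN, and 3 fell without HET SN or KO replicate 2, 4 without KO replicate 1 and 7 without KO SN. Tenm4, a teneurin of the same family as the Tenm3 that maps the visual projection, had 278 and 273 CPM in KO cells, 235 and 215 CPM in HET cells and 107 and 73.3 CPM in KO and HET SN and rose by 1.47 ± 0.23, adjusted p = 0.000727. Nfasc, which gathers sodium channels at the axon initial segment, had 634 and 578 CPM in KO cells, 523 and 342 CPM in HET cells and 163 and 71.6 CPM in KO and HET SN and rose by 2.12 ± 0.32, adjusted p = 0.000549. Slitrk6 and Negr1 were among those that fell, with log2 differences of -1.59 and -0.85. Slitrk6, a leucine-rich repeat protein, had 2.50 and 2.54 CPM in KO cells, 2.96 and 3.39 CPM in HET cells and 7.71 and 9.37 CPM in KO and HET SN.

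Of 35 voltage-gated channel subunits 18 rose and none fell, with a median of 0.78, and 17 rose in HET cells while 15 rose and 1 fell in KO cells. The 18 became 2 without HET SN and 4 with the E15 libraries alone. In HET cells 1 rose without HET SN or HET replicate 1, and in KO cells 3 rose without HET SN and 7 without KO replicate 1. Scn3a, a sodium channel of embryonic neurons, had 170.4 and 125 CPM in KO cells, 176 and 114 CPM in HET cells and 67.4 and 43.6 CPM in KO and HET SN and rose by 1.40 ± 0.25, adjusted p = 0.00219. Cacna1b, the N-type calcium channel, had 135 and 118 CPM in KO cells, 175 and 123 CPM in HET cells and 53.0 and 36.7 CPM in KO and HET SN. None of its AP-positive values reached down to SN, and it rose by 1.61.

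Among 36 neurotransmitter receptor subunits 12 rose and 1 fell (median 0.36), with 8 and none in HET cells and 8 and 1 in KO cells. In AP-positive cells 1 rose without HET SN, 4 without KO replicate 1 and 6 without HET replicate 1. In HET cells 2 rose without HET SN or HET replicate 1, 15 without HET replicate 2 and 14 without KO SN, and in KO cells 3 rose without HET SN and 4 without KO replicate 1. Chrna3, a nicotinic receptor subunit of the cholinergic stage of retinal waves, had 471 and 446 CPM in KO cells, 314 and 203 CPM in HET cells and 142 and 122 CPM in KO and HET SN and rose by 1.39 ± 0.19, adjusted p = 0.000296. Gria2, an AMPA receptor subunit, had 182 and 155 CPM in KO cells, 116 and 84.4 CPM in HET cells and 61.6 and 37.1 CPM in KO and HET SN and rose by 1.40 ± 0.25, adjusted p = 0.00198. Of 31 genes of synaptic vesicle release 11 rose and 1 fell (median 0.48), with 11 and 1 in HET cells and 6 and 3 in KO cells. Without HET SN 1 release gene rose in AP-positive cells, and 5 did without HET replicate 1 or KO replicate 1. In HET cells 1 rose without HET SN or HET replicate 1 and 22 without HET replicate 2. In KO cells 2 rose without HET SN and 3 without KO replicate 1, and none fell without HET SN or KO replicate 2 and 1 without KO replicate 1. Unc13a, which primes vesicles, had 183 and 150.3 CPM in KO cells, 172 and 120.0 CPM in HET cells and 70.3 and 42.9 CPM in KO and HET SN and rose by 1.46 ± 0.24, adjusted p = 0.00107. Bsn, the active zone scaffold bassoon, had 130.2 and 109.7 CPM in KO cells, 115 and 83.8 CPM in HET cells and 47.8 and 18.3 CPM in KO and HET SN and rose by 1.72 ± 0.34, adjusted p = 0.00385.

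Ligands and trophic receptors added smaller numbers. Over all genes tested, 13.4% rose and 13% fell in AP-positive cells. The shares were 9.35% and 3.84% in HET cells and 12.3% and 11.5% in KO cells. Of 27 neuronal ligands tested, 5 rose and none fell in AP-positive cells (median 0.42), 6 rose in HET cells, and 5 rose and 3 fell in KO cells. In KO cells 3 rose without HET SN or KO replicate 1, and none fell without HET SN or KO replicate 2. Adcyap1, which encodes the neuropeptide PACAP, had 44.1 and 46.9 CPM in KO cells, 65.9 and 39.7 CPM in HET cells and 11.9 and 11.2 CPM in KO and HET SN and rose by 2.08 ± 0.37, adjusted p = 0.00219. Tac1, the precursor of substance P, rose by 2.32 ± 0.45, adjusted p = 0.00352. Igf1, a growth factor that is also made by subtypes of ganglion cells, split by genotype, with 17.8 and 6.11 CPM in KO cells, 239 and 129 CPM in HET cells and 28.6 and 26.0 CPM in KO and HET SN. Its KO values lay below SN and its HET values above. Pdgfb, a growth factor of the PDGF family, had 8.08 and 7.82 CPM in KO cells, 6.55 and 7.24 CPM in HET cells and 0.17 and 0.112 CPM in KO and HET SN and rose by 5.68 ± 0.30, adjusted p = 1.3e-07. Microglial markers rose in the same libraries, and their part in the rise of Pdgfb was not tested. Of 18 neurotrophic receptors 5 rose and 1 fell (median 0.35), with 4 higher and none lower in HET cells and 5 and 1 in KO cells. Without HET SN 1 neurotrophic receptor rose in AP-positive cells, none in HET cells and 2 in KO cells. In HET cells 1 rose without HET replicate 1, and in KO cells 2 rose without KO replicate 1 and 3 without KO replicate 2. Ret, the receptor subunit for GDNF ligands, rose by 1.13 ± 0.29, adjusted p = 0.0143. Met, the receptor for hepatocyte growth factor, was the one that fell, with 8.97 and 14.4 CPM in KO cells, 9.76 and 22.2 CPM in HET cells and 35.9 and 44.7 CPM in KO and HET SN.

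**Figure D2:**
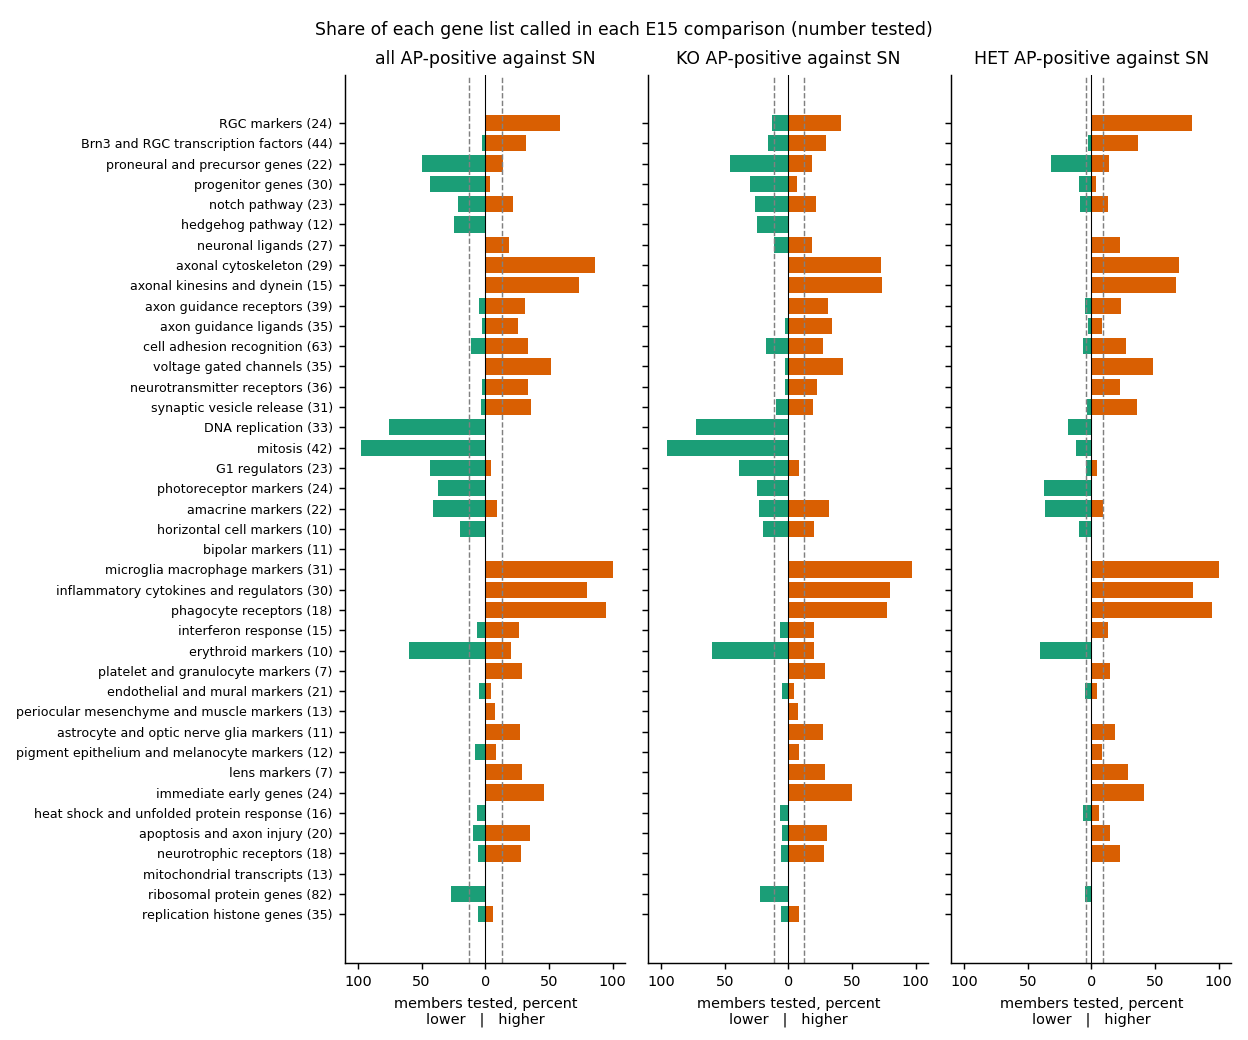
Percent of the tested members of each gene list that were called higher or lower than SN in all AP-positive cells, in KO cells and in HET cells, with dashed lines at the share of all genes tested. Axonal, channel and microglial lists stand out on the higher side, and mitosis and DNA replication lists on the lower side, where HET cells alone had few calls.

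Cell division genes were lower in the AP-positive cells. Of 42 mitosis genes 41 fell and none rose, with a median of -1.33, and all 4 AP-positive libraries lay below both SN libraries for 42 of the 42. Ccnb1, the cyclin that drives entry into mitosis, had 47.3 and 65.9 CPM in KO cells, 51.6 and 114 CPM in HET cells and 172 and 261 CPM in KO and HET SN and fell by 1.66 ± 0.32, adjusted p = 0.0036. Cdc20, which activates the anaphase-promoting complex, had 29.6 and 43.4 CPM in KO cells, 28.8 and 55.4 CPM in HET cells and 93.8 and 96.1 CPM in KO and HET SN and fell by 1.28 ± 0.31, adjusted p = 0.0111. Plk1, the kinase that builds the spindle, had 15.1 and 26.6 CPM in KO cells, 14.1 and 36.2 CPM in HET cells and 47.7 and 50.8 CPM in KO and HET SN and fell by 1.11 ± 0.36, adjusted p = 0.0394. Within each of these genes HET replicate 2 was the highest AP-positive library and KO replicate 1 or HET replicate 1 the lowest. KO cells alone had 40 mitosis genes lower and HET cells 5. Tested directly, no mitosis gene was called between KO and HET cells, and the list's median there was -0.50. With HET replicate 2 left out, 39 fell in HET cells, 3 fell without KO replicate 1 or KO replicate 2, and none without HET SN or HET replicate 1. In KO cells none fell without HET SN or KO replicate 1. Without the HET SN library, no mitosis gene was called in the AP-positive cells as a whole, 11 were without KO replicate 1, 20 without HET replicate 1, and 3 with E15 libraries alone.

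Genes of S phase had the same direction. Of 33 DNA replication genes 25 fell and none rose (median -1.19), with 24 lower in KO cells and 6 in HET cells. In AP-positive cells none fell without HET SN, 11 without KO replicate 1 and 12 without HET replicate 1. In KO cells none fell without HET SN or KO replicate 1 and 15 without KO replicate 2. In HET cells none fell without HET SN or HET replicate 1, 3 without KO replicate 1 or KO replicate 2, and 24 without HET replicate 2. Mcm4, a subunit of the replicative helicase, had 54.6 and 81.9 CPM in KO cells, 58.2 and 129 CPM in HET cells and 189.6 and 265 CPM in KO and HET SN and fell by 1.51 ± 0.33, adjusted p = 0.00633. Of 23 G1 regulators 10 fell and 1 rose (median -0.73), with 9 and 2 in KO cells and 1 and 1 in HET cells. No G1 regulator fell in AP-positive cells without HET SN and 4 did without HET replicate 1 or KO replicate 1. In KO cells none fell without HET SN or KO replicate 1 and 5 without KO replicate 2, and in HET cells 8 fell without HET replicate 2. Rbl1, a pocket protein expressed in cycling cells, had 28.4 and 38.3 CPM in KO cells, 30.9 and 63.6 CPM in HET cells and 85.0 and 102 CPM in KO and HET SN and fell by 1.24 ± 0.29, adjusted p = 0.00983. Cdkn1a, the inhibitor p21, was the one that rose, by 0.92 ± 0.23, adjusted p = 0.0131, with 13.2 and 17.2 CPM in KO cells, 18.1 and 15.6 CPM in HET cells and 7.74 and 9.23 CPM in KO and HET SN. Of the 70 replication-dependent histone genes in the list, 35 could be tested, of which 2 rose and 2 fell (median -1.20). These transcripts largely lack poly(A) tails and the libraries were made from mRNA.

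The promoters of the mitosis genes are shown because they share letters that the choice of the list did not use. Each window runs from 250 bases before to 50 bases after the start that RefSeq lists first (build GRCm38.p6), and 9 motifs were searched on both strands. Capitals mark the cell cycle homology region TTTGAA and the CCAAT box, or the same letters on the other strand, and all windows are printed on the strand of the gene. Cdc20 lies on the minus strand at chr4:118437294-118437593, Plk1 on the plus strand at chr7:122159185-122159484, and Ccnb2, which encodes cyclin B2, on the minus strand at chr9:70421505-70421804.
Cdc20: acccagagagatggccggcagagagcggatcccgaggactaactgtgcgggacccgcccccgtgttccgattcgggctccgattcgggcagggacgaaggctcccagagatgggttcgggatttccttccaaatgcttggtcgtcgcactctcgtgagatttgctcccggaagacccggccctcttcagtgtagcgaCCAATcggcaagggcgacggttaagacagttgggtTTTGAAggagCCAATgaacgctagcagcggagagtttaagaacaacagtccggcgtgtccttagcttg
Plk1: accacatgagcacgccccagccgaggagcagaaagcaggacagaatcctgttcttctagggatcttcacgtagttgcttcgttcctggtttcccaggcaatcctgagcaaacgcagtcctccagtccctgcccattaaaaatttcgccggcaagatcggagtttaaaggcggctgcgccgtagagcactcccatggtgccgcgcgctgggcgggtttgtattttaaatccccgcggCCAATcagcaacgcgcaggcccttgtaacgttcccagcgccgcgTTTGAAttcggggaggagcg
Ccnb2: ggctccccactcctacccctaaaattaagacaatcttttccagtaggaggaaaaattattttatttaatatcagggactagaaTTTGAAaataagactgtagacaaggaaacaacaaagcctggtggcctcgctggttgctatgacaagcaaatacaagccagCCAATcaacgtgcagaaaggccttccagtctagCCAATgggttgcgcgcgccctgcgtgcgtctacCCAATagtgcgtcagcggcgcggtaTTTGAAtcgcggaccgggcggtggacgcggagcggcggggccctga
The letters TTTGAA occurred in 26 of 36 mitosis promoters with a window (72.2%), against 11.8% of the promoters of all tested genes and 18.1% of all promoters. CCAAT occurred in 27 of the 36 (75.0%), against 38.1% of those of tested genes. In 26 DNA replication promoters TTTGAA was found in 3 (11.5%), CCAAT in 18 (69.2%) and the E2F letters TTCGCGCC in 4 (15.4%), against 0.867% of tested genes for E2F. The other motifs searched were GAGGAAGT for PU.1, the ISRE core of interferon regulatory factors, ATTAAT for POU4 factors, TGACGTCA and TGAGTCA for CREB and AP-1 factors, and CAGATGG for an E-box of the Atoh7 type. A match of these letters is a description of the window and not a shown binding site. Ccnb2 itself had 16.7 and 28.1 CPM in KO cells, 18.7 and 44.5 CPM in HET cells and 51.4 and 82.9 CPM in KO and HET SN and fell by 1.34 ± 0.36, adjusted p = 0.017.

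Of 30 progenitor factors and markers 13 fell and 1 rose (median -0.83), with 9 and 2 in KO cells and 3 and 1 in HET cells. In AP-positive cells 1 fell without HET SN, 4 without KO replicate 1 and 5 without HET replicate 1. In KO cells none fell without HET SN or KO replicate 1, and 15 without HET replicate 1 or HET replicate 2. In HET cells 1 fell without HET SN or HET replicate 1 and 17 without HET replicate 2. Hmga2, a chromatin protein of young progenitors, had 9.67 and 12.7 CPM in KO cells, 10.0 and 18.3 CPM in HET cells and 35.8 and 45.0 CPM in KO and HET SN and fell by 1.68 ± 0.34, adjusted p = 0.00452. Ccnd1, the cyclin D of retinal progenitors, had 414 and 872 CPM in KO cells, 522 and 1525 CPM in HET cells and 1840 and 2215 CPM in KO and HET SN and fell by 1.32 ± 0.44, adjusted p = 0.0418. Fgf15, a growth factor of progenitors, had 204 and 405 CPM in KO cells, 244 and 707 CPM in HET cells and 934 and 1344 CPM in KO and HET SN and fell by 1.58 ± 0.43, adjusted p = 0.0176. Each of these was lowest in KO replicate 1 or HET replicate 1 and highest in SN. Vax2, a homeodomain factor that marks ventral retina, was the one that rose, with 28.4 and 31.5 CPM in KO cells, 30.3 and 30.6 CPM in HET cells and 19.1 and 12.3 CPM in KO and HET SN. Pax6, which both progenitors and ganglion and amacrine cells express, had 1273 and 1176 CPM in KO cells, 809 and 777 CPM in HET cells and 857 and 786 CPM in KO and HET SN and rose in KO cells by 0.58 ± 0.13, adjusted p = 0.00731.

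The proneural list contained 22 genes, of which 11 fell and 3 rose (median -0.84), with 10 and 4 in KO cells and 7 and 3 in HET cells. In AP-positive cells 3 fell without HET SN and 7 without KO replicate 1, and 1 rose without HET SN. In KO cells 1 fell without HET SN, none without KO replicate 1 and 6 without KO replicate 2. In HET cells none fell without HET SN or HET replicate 1 and 12 without HET replicate 2. Neurog2, a proneural factor of precursors in their last cycle, had 25.0 and 31.9 CPM in KO cells, 15.9 and 34.6 CPM in HET cells and 72.0 and 92.4 CPM in KO and HET SN and fell by 1.62 ± 0.37, adjusted p = 0.00799. Atoh7, which makes precursors competent to become ganglion cells, did not follow, with 15.2 and 23.9 CPM in KO cells, 11.1 and 14.2 CPM in HET cells and 13.5 and 3.35 CPM in KO and HET SN. It was not called, and its HET SN value was the lowest of all. The genes that rose were Mfng, a glycosyltransferase that modifies Notch, Nhlh1, a factor of newborn neurons, and Neurod2. Nhlh1 had 21.9 and 28.7 CPM in KO cells, 68.3 and 56.6 CPM in HET cells and 10.3 and 12.2 CPM in KO and HET SN and rose by 1.82 ± 0.37, adjusted p = 0.00442.

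In the Notch pathway, 5 of 23 genes rose and 5 fell (median -0.41), with 5 and 6 in KO cells and 3 and 2 in HET cells. In AP-positive cells 2 rose and 1 fell without HET SN, 3 rose and 3 fell without KO replicate 1, 3 rose without HET replicate 1, and 9 fell without HET replicate 2. In KO cells 2 rose without HET SN, KO replicate 1 or KO replicate 2, and none fell without HET SN or KO replicate 1 and 1 without KO replicate 2. In HET cells none rose or fell without HET SN or HET replicate 1, and 9 fell without HET replicate 2. Mfng had 135 and 159 CPM in KO cells, 80.7 and 85.7 CPM in HET cells and 61.0 and 38.2 CPM in KO and HET SN and rose by 1.16 ± 0.18, adjusted p = 0.000847, and Numbl, a Notch antagonist, rose by 1.04 ± 0.18, adjusted p = 0.00142. Heyl, a target of Notch, had 6.37 and 10.3 CPM in KO cells, 6.93 and 19.0 CPM in HET cells and 36 and 37.1 CPM in KO and HET SN and fell by 1.81 ± 0.39, adjusted p = 0.00646, and Dll4, a ligand of newborn precursors, had 19.0 and 23.7 CPM in KO cells, 11.4 and 31.5 CPM in HET cells and 68.2 and 45.3 CPM in KO and HET SN and fell by 1.41 ± 0.33, adjusted p = 0.00971. Rbpj, the factor through which Notch acts in the nucleus, fell by 0.60. Of 12 hedgehog pathway genes 3 fell and none rose (median -0.66), with 3 lower in KO cells and none in HET cells. Without HET SN or KO replicate 1 none fell in AP-positive cells, 1 did without HET replicate 1 and 7 without HET replicate 2. In KO cells none fell without HET SN, 1 without KO replicate 1 or KO replicate 2 and 5 without HET replicate 1 or HET replicate 2, and in HET cells 5 fell without HET replicate 2. Smo, the signal transducer, had 53.0 and 73.8 CPM in KO cells, 49.9 and 107 CPM in HET cells and 128 and 137 CPM in KO and HET SN and fell by 0.91 ± 0.23, adjusted p = 0.0143. Gas1 and Gli3, a co-receptor and a transcription factor of the pathway, fell, with log2 differences of -1.40 and -1.25. Shh, the ligand that ganglion cells release, had 3.61 and 1.19 CPM in KO cells, 17.5 and 8.77 CPM in HET cells and 4.71 and 5.69 CPM in KO and HET SN and in KO cells fell by 2.45 ± 0.49, adjusted p = 0.0187 relative to HET cells.

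**Figure D3:**
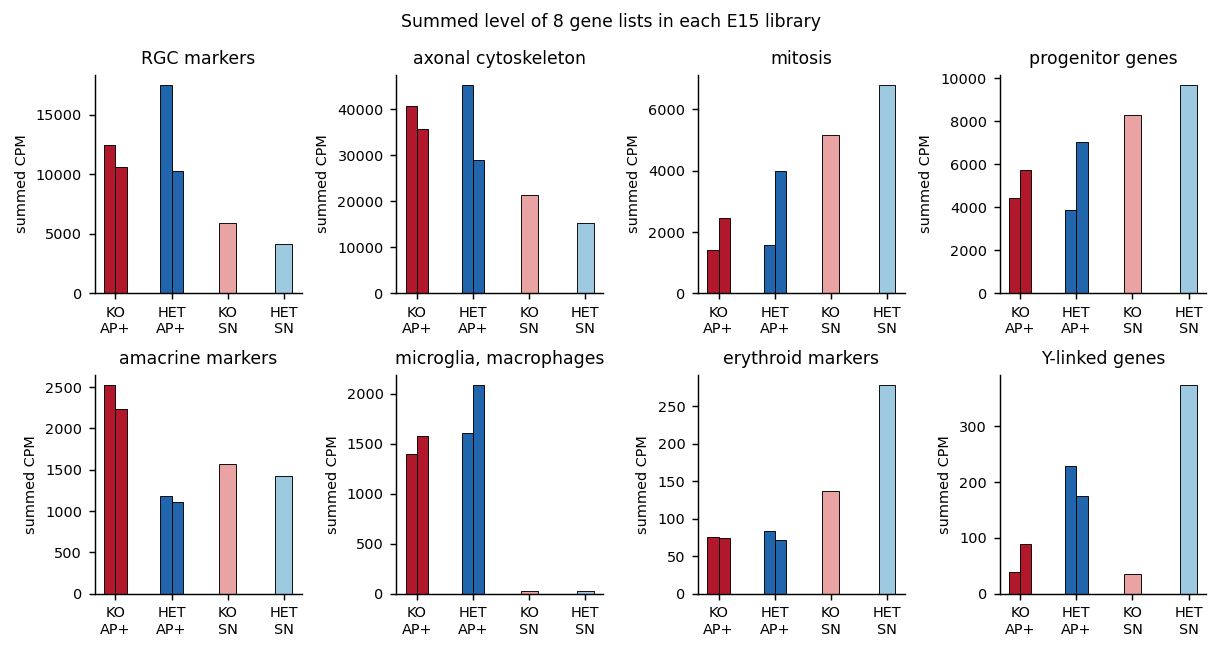
CPM summed over 8 gene lists in each of the 6 E15 libraries, in the order KO cells, HET cells and SN, with 1 bar for each library and axes that start at 0. Ganglion cell markers and the axonal cytoskeleton are higher in all AP-positive libraries than in SN, mitosis genes are lower, with HET replicate 2 the nearest to SN, and amacrine markers are higher in KO cells than in HET cells.

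Markers of other retinal neurons were then examined. Of 24 photoreceptor markers tested 9 fell and none rose (median -1.36), with 6 lower in KO cells and 9 in HET cells. Otx2, the factor that starts the photoreceptor fate, had 78.4 and 83.7 CPM in KO cells, 72.4 and 114 CPM in HET cells and 261 and 300.0 CPM in KO and HET SN and fell by 1.69 ± 0.36, adjusted p = 0.00605. Prdm1, which stabilises that fate, had 68.6 and 71.1 CPM in KO cells, 53.9 and 81.3 CPM in HET cells and 168 and 216 CPM in KO and HET SN and fell by 1.48 ± 0.29, adjusted p = 0.0041. Crx, the next factor in line, had 81.1 and 71.5 CPM in KO cells, 49.7 and 72.0 CPM in HET cells and 179 and 178 CPM in KO and HET SN, lower in all AP-positive libraries. Gnat2 and Pde6c, proteins of cone phototransduction, fell, with log2 differences of -1.68 and -2.11. Without the HET SN library 1 photoreceptor marker fell, in HET cells none did without it or without HET replicate 1 and 5 did without KO SN, and in KO cells 1 did without HET SN and none without KO replicate 1 or KO replicate 2.

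Amacrine markers had calls in both directions and differed between the genotypes. Of 22 markers 9 fell and 2 rose (median -0.69) in AP-positive cells, with 5 lower and 7 higher in KO cells and 8 lower and 2 higher in HET cells. In KO cells 4 rose without HET SN or KO replicate 1, and 1 fell without HET SN, 3 without KO replicate 1 and 2 without KO replicate 2. In HET cells none rose without HET SN and 1 without HET replicate 1 or HET replicate 2. In AP-positive cells 4 rose without KO SN. Prdm13, a zinc finger factor of amacrine precursors, had 17.9 and 16.4 CPM in KO cells, 13.1 and 17.1 CPM in HET cells and 68.1 and 83.8 CPM in KO and HET SN and fell by 2.24 ± 0.24, adjusted p = 3.2e-05. Ptf1a, the factor that starts the amacrine and horizontal fates, had 4.72 and 5.87 CPM in KO cells, 4.18 and 5.00 CPM in HET cells and 17.2 and 17.4 CPM in KO and HET SN and fell by 1.81 ± 0.34, adjusted p = 0.00275. Tfap2b, a factor of postmitotic amacrine cells, had 120.4 and 54.9 CPM in KO cells, 29.0 and 19.4 CPM in HET cells and 162 and 146 CPM in KO and HET SN and fell by 1.74 ± 0.31, adjusted p = 0.00211. All these were lower in every AP-positive library than in SN. Gad1 and Gad2, the enzymes that make GABA, went opposite ways: Gad1 had 4.25 and 1.99 CPM in KO cells, 0.488 and 0.14 CPM in HET cells and 10.7 and 8.59 CPM in KO and HET SN and Gad2 had 302 and 313 CPM in KO cells, 99.6 and 100 CPM in HET cells and 77.6 and 85.5 CPM in KO and HET SN. Gad1 fell by 3.27 ± 0.47, adjusted p = 0.000383 and Gad2 rose by 1.1 ± 0.18, adjusted p = 0.00137. The other gene that rose was Neurod2, at 0.761 and 1.01 CPM in KO cells, 0.453 and 0.804 CPM in HET cells and 0.17 and 0.14 CPM in KO and HET SN.

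Horizontal cell markers numbered 10, of which 2 fell and none rose (median -0.22). These 2 were Ptf1a and Foxn4, a factor of multipotent progenitors, which had 34.0 and 73.5 CPM in KO cells, 31.9 and 102 CPM in HET cells and 156 and 141 CPM in KO and HET SN. Lhx1, which horizontal cells express, had 4.60 and 1.89 CPM in KO cells, 2.09 and 0.489 CPM in HET cells and 9.53 and 3.77 CPM in KO and HET SN. In KO cells 2 rose and 2 fell, among them Onecut2, a factor of horizontal and ganglion cells, with 251 and 221 CPM in KO cells, 160.5 and 114 CPM in HET cells and 149.5 and 77.3 CPM in KO and HET SN, and in HET cells 1 fell. Without HET SN or KO replicate 1 no horizontal cell marker was called in KO cells. None of 11 bipolar markers was called in AP-positive, KO or HET cells. Most bipolar cells are born later than E15.

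Genes of microglia and macrophages were far higher in the AP-positive cells. Of 31 markers 31 rose in AP-positive cells, 31 in HET cells and 30 in KO cells, with a median of 7.67 that was the same when the 2 members at 0 in both SN libraries were put at their lower bound. Csf1r, the receptor for the growth factor that keeps microglia alive, had 222 and 244 CPM in KO cells, 223 and 314 CPM in HET cells and 1.96 and 0.502 CPM in KO and HET SN, with no AP-positive value near SN, and it rose by 7.67 ± 0.80, adjusted p = 2.21e-05. Ctss, a lysosomal protease, had 92.3 and 118 CPM in KO cells, 114 and 150.2 CPM in HET cells and 0.199 and 0.0558 CPM in KO and HET SN and rose by 9.82 ± 1.12, adjusted p = 5.17e-05. Gpr34 and P2ry13, a lipid receptor and a purine receptor of microglia, rose by 9.16 and 10.05. Trem2, a lipid receptor on microglia, was at 0 in both SN libraries, and its mean was at least 440-fold higher in AP-positive cells, taking 3 counts over the SN group as the floor. Mrc1, a macrophage mannose receptor, was uneven among the AP-positive libraries, with 6.44 and 1.74 CPM in KO cells, 28.7 and 11.5 CPM in HET cells and 0.0284 and 0 CPM in KO and HET SN, as was F13a1, with 3.68 and 0 CPM in KO cells, 28.9 and 9.96 CPM in HET cells and 0.0851 and 0 CPM in KO and HET SN. F13a1 was the marker not called in KO cells. Counts of this list stayed at 30 or 31 under every alternative that was run. These cells were bound with AP-positive cells in both genotypes, and by which route they came to the beads was not tested.

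Inflammatory genes rose with them. Of 30 cytokines and regulators tested (33 in the list) 24 rose and none fell in AP-positive cells, with a median of 4.14, and 24 rose in each genotype. Tnf, which encodes tumour necrosis factor, had 9.64 and 8.07 CPM in KO cells, 10.5 and 14.1 CPM in HET cells and 0.0284 and 0 CPM in KO and HET SN and rose by 9.20 ± 0.69, adjusted p = 1.38e-06. Ccl2, a chemokine that attracts monocytes, was at 0 in SN and had 23.9 and 27.8 CPM in KO cells against 29.3 and 31.0 CPM in HET cells, at least 664-fold higher over all AP-positive cells. Il1b, which encodes interleukin-1 beta, was also at 0 in SN and at least 602-fold higher, with 18 and 23.9 CPM in KO cells against 29.5 and 30.2 CPM in HET cells. Cd83, a regulator of antigen-presenting cells, had 43.3 and 43.8 CPM in KO cells, 48.2 and 50.7 CPM in HET cells and 2.64 and 3.65 CPM in KO and HET SN and rose by 3.88 ± 0.22, adjusted p = 2.01e-07. Of 18 phagocyte receptors tested 17 rose (median 6.59, or 5.38 with the 6 members at 0 in SN at their lower bound), with 17 in HET cells and 14 in KO cells. Stab1, a scavenger receptor, had 36.2 and 32.4 CPM in KO cells, 90.8 and 54.4 CPM in HET cells and 1.3 and 0.921 CPM in KO and HET SN and rose by 5.48 ± 0.35, adjusted p = 3.26e-07, and C3ar1, a complement receptor, rose by 7.88 ± 0.64, adjusted p = 2.66e-06. Fcgr1, an antibody receptor, was at least 228-fold higher than SN, where it had no counts.

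The promoters of 2 of these genes are shown because they hold the letters GAGGAAGT or their complement, the core bound by PU.1, a factor of the macrophage lineage, marked in capitals. Ctss lies on the plus strand at chr3:95526536-95526835 and Cd53, a tetraspanin of leukocytes, on the minus strand at chr3:106790100-106790399 (RefSeq, GRCm38.p6).
Ctss: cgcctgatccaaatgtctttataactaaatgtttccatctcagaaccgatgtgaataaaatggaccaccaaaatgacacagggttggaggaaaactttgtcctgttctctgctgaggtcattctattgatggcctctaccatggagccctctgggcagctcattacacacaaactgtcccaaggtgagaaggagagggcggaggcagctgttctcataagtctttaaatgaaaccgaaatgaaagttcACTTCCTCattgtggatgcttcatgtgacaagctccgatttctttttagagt
Cd53: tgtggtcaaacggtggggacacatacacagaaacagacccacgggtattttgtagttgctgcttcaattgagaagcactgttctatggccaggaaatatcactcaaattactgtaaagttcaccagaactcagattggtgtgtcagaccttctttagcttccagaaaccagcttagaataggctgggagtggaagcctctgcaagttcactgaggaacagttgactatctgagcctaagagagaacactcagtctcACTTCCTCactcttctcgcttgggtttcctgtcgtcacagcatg
The PU.1 letters were found in 3 of 24 microglial promoters with a window (12.5%), against 2.95% of the promoters of tested genes. The ISRE core and the Atoh7-type E-box were each found in 3 of the 24 as well, against 2.92% and 3.80% of the promoters of tested genes. Cd53 had 26.0 and 30.7 CPM in KO cells, 38 and 40.8 CPM in HET cells and 0.113 and 0.0837 CPM in KO and HET SN and rose by 8.35 ± 0.66, adjusted p = 2.13e-06.

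Of 15 interferon response genes 4 rose and 1 fell (median 0.84, or 0.59 with the 2 members at 0 in SN at their bound), with 3 and 1 in KO cells and 2 and none in HET cells. Without HET SN no interferon response gene rose in AP-positive or KO cells. Without KO replicate 1 or KO SN 2 rose in AP-positive cells, and in KO cells none rose without KO replicate 1 and 1 without KO replicate 2 or KO SN. Ifit2, an interferon-induced protein, was the one that fell, with 3.23 and 4.52 CPM in KO cells, 4.01 and 7.72 CPM in HET cells and 10.4 and 15.7 CPM in KO and HET SN. Immediate early genes, which cells switch on within minutes of stimulation or dissociation, gave 11 higher and none lower of 24 tested (median 0.79), with 12 in KO cells and 10 in HET cells. Without HET SN 6 rose in AP-positive and 5 in HET cells, and without HET replicate 1, 6 rose in HET cells. Atf3, a stress-induced factor, had 88.2 and 88.2 CPM in KO cells, 77.2 and 99.8 CPM in HET cells and 5.16 and 7.84 CPM in KO and HET SN and rose by 3.76 ± 0.29, adjusted p = 1.59e-06. Klf2, a zinc finger factor, had 28.1 and 33.5 CPM in KO cells, 26.9 and 41.1 CPM in HET cells and 2.64 and 4.91 CPM in KO and HET SN and rose by 3.10 ± 0.45, adjusted p = 0.000469. Nr4a1, an orphan nuclear receptor, rose by 2.07 ± 0.24, adjusted p = 6.19e-05. Fos and Jun did not follow: Fos had 168 and 237 CPM in KO cells, 138 and 234 CPM in HET cells and 139 and 241 CPM in KO and HET SN and Jun had 158 and 187 CPM in KO cells, 121 and 169 CPM in HET cells and 156 and 113 CPM in KO and HET SN, with overlapping groups. Microglial markers rose in the same libraries as Atf3, Klf2 and Zfp36, and their part in these values was not tested.

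Red blood cell transcripts were lower on the beads. Of 10 erythroid genes tested 6 fell and 2 rose (median -4.40), with 6 and 2 in KO cells and 4 and none in HET cells. Without HET SN 3 fell and 1 rose both in AP-positive and in KO cells, and in HET cells none fell without HET SN, HET replicate 1 or HET replicate 2. In KO cells 1 rose without KO replicate 1 or KO replicate 2. The 2 that rose were Ermap and Tmcc2, of which Ermap, an erythrocyte membrane protein, had 0.824 and 1.62 CPM in KO cells, 0.453 and 0.769 CPM in HET cells and 0 and 0.14 CPM in KO and HET SN. Hba-a2, an alpha-globin, had 1.62 and 0 CPM in KO cells, 3.14 and 4.40 CPM in HET cells and 27.2 and 79.9 CPM in KO and HET SN and fell by 4.94 ± 0.82, adjusted p = 0.00135. Alas2, the first enzyme of heme synthesis in erythroid cells, had 0 and 0.0306 CPM in KO cells, 0.0348 and 0.035 CPM in HET cells and 0.596 and 3.99 CPM in KO and HET SN and fell by 6.40 ± 1.14, adjusted p = 0.00207. HET SN held more of both than KO SN. Hbb-y, an embryonic globin, was at 0 in all 4 AP-positive libraries and at least 87.1-fold lower than in SN, taking 3 counts over the AP-positive libraries as the floor.

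Calls among markers of other cell types were few in number, from short lists. Over all genes tested, 13.4% rose and 13% fell in AP-positive cells. The shares that rose among the platelet and granulocyte, the glia and the lens markers below were above 13.4%. Of 21 endothelial and mural markers 1 rose and 1 fell, namely Eng, which macrophages also express, with a log2 difference of 4.05, and the pericyte receptor Pdgfrb, with -1.42. Of 7 platelet and granulocyte markers tested 2 rose, namely Gp1bb and Itga2b, of 13 mesenchyme and muscle markers tested 1 rose, Pdgfra, and of 12 pigment cell markers tested Mitf rose and Dct fell. Of 11 astrocyte and optic nerve glia markers 3 rose, namely S100b, Gfap and Pax2, a factor of the optic stalk and its glia, which had 13.7 and 14.5 CPM in KO cells, 8.40 and 14.2 CPM in HET cells and 2.72 and 2.43 CPM in KO and HET SN. Of 7 lens markers tested 2 rose, and Crybb1, a lens crystallin, had 4.15 and 2.96 CPM in KO cells, 2.96 and 5.14 CPM in HET cells and 0.0851 and 0 CPM in KO and HET SN. Among 16 heat shock and unfolded protein genes 1 was called, the chaperone Hsph1, which fell by 0.66 ± 0.12, adjusted p = 0.00261. Of 20 genes of apoptosis and axon injury 7 rose and 2 fell (median 0.21). Without HET SN 1 of these rose and none fell, and none fell without HET replicate 1 or KO replicate 1. Map3k12, the kinase DLK that reports axon injury, had 83.3 and 71.5 CPM in KO cells, 106 and 74.3 CPM in HET cells and 50.5 and 40.0 CPM in KO and HET SN and rose by 0.88 ± 0.16, adjusted p = 0.00239. Pmaip1, a pro-apoptotic protein, had 8.37 and 10.1 CPM in KO cells, 7.35 and 10.5 CPM in HET cells and 0.596 and 0.14 CPM in KO and HET SN and rose by 4.61 ± 0.48, adjusted p = 2.27e-05. The part of microglia, whose markers rose in the same libraries, in the rise of Pmaip1 was not tested. None of 13 mitochondrial transcripts and none of 4 Y-linked transcripts was called. Snhg11, the single nuclear retained transcript that could be tested, had 99.2 and 54.6 CPM in KO cells, 350.2 and 216 CPM in HET cells and 79.5 and 105 CPM in KO and HET SN and was called in HET cells alone. Of 82 ribosomal protein genes 22 fell and none rose, by a median of -0.28 over the list.

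The genotypes were then set against each other directly. Between KO and HET cells 335 genes were called, 1.98% of those tested, with 130 higher in KO cells (0.767%) and 205 lower (1.21%), and the median over all genes was -0.03. All 335 were free of overlap between the 2 KO and 2 HET libraries, as were 19.5% of all genes in each direction. This count depends on the fit. It was 17 with the 6 E15 libraries alone, and without single libraries it ran down to 94 (without KO replicate 2). When each genotype's enrichment was first taken over its own single SN library, 2 genes were called, Inpp4b and the predicted gene Gm14303, which are named here after their values were seen.

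Genes lower in KO cells than in HET cells included ganglion cell markers. Of the 24 ganglion cell markers 6 fell and none rose (median -0.67), and of the 44 Brn3 network factors 9 fell and 4 rose (median -0.34). The markers that fell numbered 2 without KO replicate 2, and the network factors that rose numbered 2 without KO replicate 1 or KO replicate 2. Eomes, the T-box factor also called Tbr2, had 18.8 and 11 CPM in KO cells against 239.9 and 147 CPM in HET cells, and SN lay between them at 48.2 and 41.6 CPM. It fell by 3.70 ± 0.33, adjusted p = 0.000224. Tbx20, another T-box factor, had 3.04 and 1.86 CPM in KO cells, 65.3 and 46.8 CPM in HET cells and 7.49 and 4.86 CPM in KO and HET SN and fell by 4.51 ± 0.52, adjusted p = 0.000703. Opn4, the photopigment melanopsin of intrinsically photosensitive ganglion cells, had 1.52 and 0.183 CPM in KO cells, 14.8 and 11.6 CPM in HET cells and 2.92 and 2.96 CPM in KO and HET SN and fell by 3.95 ± 0.62, adjusted p = 0.00473. Irx6, an Iroquois homeodomain factor, had 1.46 and 2.63 CPM in KO cells, 35.5 and 28.6 CPM in HET cells and 11.5 and 6.14 CPM in KO and HET SN and fell by 3.97 ± 0.46, adjusted p = 0.000703. In each of these the 2 HET libraries stood far above the 2 KO libraries. Among the other Iroquois genes Irx1, Irx2, Irx4 and Irx5 also fell, with log2 differences of -6.12, -3.02, -3.23 and -3.31, while Irx3 had 2.50 and 0.825 CPM in KO cells, 15.6 and 5.35 CPM in HET cells and 2.04 and 0.391 CPM in KO and HET SN and was not called. Sncg fell by 3.84 ± 0.49, adjusted p = 0.00125, and Ebf1 fell by 3.24 ± 0.39, adjusted p = 0.000787. The promoter of Eomes holds the letters ATTAAT, part of the sequence that POU4 factors bind, once, in capitals. It lies on the plus strand at chr9:118477939-118478238 (RefSeq, GRCm38.p6).
Eomes: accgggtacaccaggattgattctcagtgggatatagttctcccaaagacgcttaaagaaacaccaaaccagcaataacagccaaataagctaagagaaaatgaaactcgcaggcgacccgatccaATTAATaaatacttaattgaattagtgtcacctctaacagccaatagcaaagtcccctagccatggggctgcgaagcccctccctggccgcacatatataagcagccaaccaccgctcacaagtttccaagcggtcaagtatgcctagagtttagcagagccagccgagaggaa
These letters occurred in 1 of 142 windows of genes lower in KO cells (0.704%) and in 2 of 97 of genes higher in KO cells (2.06%), against 2.47% of tested genes. Eomes is the 1 in 142.

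Of 36 neurotransmitter receptor subunits 4 fell and 1 rose in KO cells relative to HET cells, of 31 synaptic vesicle release genes 2 fell and none rose, and of 35 voltage-gated channel subunits 1 fell and 2 rose. No receptor or channel subunit was called with the E15 libraries alone. Slc6a4, the serotonin transporter, had 1.36 and 0.764 CPM in KO cells, 35.7 and 17.4 CPM in HET cells and 0.737 and 3.26 CPM in KO and HET SN and fell by 4.64 ± 0.89, adjusted p = 0.0141. Synpr, a synaptic vesicle protein, had 9.35 and 3.24 CPM in KO cells, 162 and 94.3 CPM in HET cells and 18.3 and 24.5 CPM in KO and HET SN and fell by 4.35 ± 0.43, adjusted p = 0.000342. Igf1 fell by 3.94 ± 0.45, adjusted p = 0.000703, and Mstn, which encodes the growth factor myostatin, had 8.15 and 1.96 CPM in KO cells, 89.4 and 32.5 CPM in HET cells and 25.6 and 40.3 CPM in KO and HET SN and fell by 3.60 ± 0.64, adjusted p = 0.00954. P2rx3, an ATP-gated channel, had 4.34 and 2.05 CPM in KO cells, 51.8 and 24.1 CPM in HET cells and 8.76 and 11.4 CPM in KO and HET SN and Pirt, a regulator of sensory ion channels, had 1.43 and 1.22 CPM in KO cells, 32.0 and 13.5 CPM in HET cells and 7.09 and 10.9 CPM in KO and HET SN. Htr1b, a serotonin receptor, and Grin3a, an NMDA receptor subunit, fell, with log2 differences of -2.21 and -3.16. Palm2, a paralemmin, fell by 3.64.

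Amacrine markers were higher in KO cells than in HET cells. Of 22 markers 9 rose and none fell, with a median of 1.35, and 3 rose without HET replicate 1, 5 without KO replicate 1 and 2 with the E15 libraries alone. Slc32a1, the transporter that loads GABA and glycine into vesicles, had 45.4 and 43.3 CPM in KO cells, 1.64 and 1.29 CPM in HET cells and 20.6 and 4.88 CPM in KO and HET SN. KO cells were above both SN libraries and HET cells below both, and the difference was 4.92 ± 0.58, adjusted p = 0.000787. Th, the enzyme that starts dopamine synthesis, had 281 and 253 CPM in KO cells, 12.6 and 10.9 CPM in HET cells and 28.6 and 0.53 CPM in KO and HET SN, with KO SN above HET cells and HET SN below them, and rose by 4.51 ± 0.98, adjusted p = 0.0288. Gad2 rose by 1.62 ± 0.21, adjusted p = 0.00125 and Gad1 by 3.29 ± 0.68, adjusted p = 0.0229, although Gad1 stayed below SN in both genotypes. Bhlhe22, a helix-loop-helix factor of amacrine and other retinal neurons, had 114 and 123 CPM in KO cells, 18.9 and 23.5 CPM in HET cells and 41.4 and 31.0 CPM in KO and HET SN and rose by 2.48 ± 0.32, adjusted p = 0.00125. Calb1, the calcium-binding protein calbindin, had 5.01 and 4.09 CPM in KO cells, 0.941 and 0.699 CPM in HET cells and 1.56 and 1.62 CPM in KO and HET SN and rose by 2.47. Chat and Slc18a3, the enzyme and the vesicle transporter of acetylcholine in starburst amacrine cells, had 2.92 and 3.15 CPM and 9.45 and 8.40 CPM in KO cells, 0 and 0.035 CPM and 0.348 and 0.14 CPM in HET cells, and 0.794 and 0 CPM and 2.10 and 0 CPM in KO and HET SN, and neither was called.

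Other genes higher in KO cells included Dlx1 and Dlx2, Nr4a2 and Erbb4. Dlx1, a homeodomain factor of interneurons and young ganglion cells, had 280.3 and 282 CPM in KO cells, 41.0 and 39.0 CPM in HET cells and 91.8 and 45.6 CPM in KO and HET SN and rose by 2.81 ± 0.29, adjusted p = 0.000415. Its neighbour Dlx2 had 108 and 117 CPM in KO cells, 17.8 and 22.1 CPM in HET cells and 36.7 and 24.5 CPM in KO and HET SN and rose by 2.49 ± 0.29, adjusted p = 0.000778. Nr4a2, an orphan nuclear receptor of dopaminergic neurons, had 48.8 and 46.4 CPM in KO cells, 6.27 and 10.7 CPM in HET cells and 19.8 and 12.2 CPM in KO and HET SN and rose by 2.48 ± 0.39, adjusted p = 0.00473. Erbb4, a neuregulin receptor of interneurons, had 114 and 98.8 CPM in KO cells, 9.10 and 9.09 CPM in HET cells and 11.2 and 2.90 CPM in KO and HET SN and rose by 3.55 ± 0.59, adjusted p = 0.00623. In these 4 genes every KO value exceeded every HET and SN value. Dmrta1, a factor with a DM domain, had 10.8 and 15.9 CPM in KO cells, 0.627 and 0.559 CPM in HET cells and 1.42 and 0.837 CPM in KO and HET SN, and Gna14, a G protein subunit, had 20.4 and 24.9 CPM in KO cells, 2.44 and 2.80 CPM in HET cells and 1.25 and 1.12 CPM in KO and HET SN, also with KO cells the highest. Of 39 guidance receptors 4 were higher and 2 lower in KO cells, with none higher without HET replicate 2, 1 without HET replicate 1 or KO replicate 1 and 2 without KO replicate 2. Among the 4 were Nrp2, a neuropilin, at 77.4 and 71.1 CPM in KO cells, 34.0 and 21.9 CPM in HET cells and 19.2 and 12.1 CPM in KO and HET SN, and Dcc, which rose by 1.3 ± 0.31, adjusted p = 0.0473. For several of these genes the KO SN and HET SN libraries differed in the same direction as the cells. With 1 SN library for each genotype, genotype cannot be told apart there from replicate number or from Y-linked level. Taken over each genotype's own SN library, the difference of enrichments was -0.11 for Dcc, -1.23 for Th and -0.25 for Gsg1l, a membrane protein, all reversed in sign. By the same measure it was 2.85 for Slc32a1, 1.61 for Erbb4 and 1.81 for Dlx1, and -3.90 for Eomes and -3.85 for Sncg, with no call for any of them.

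**Figure D4:**
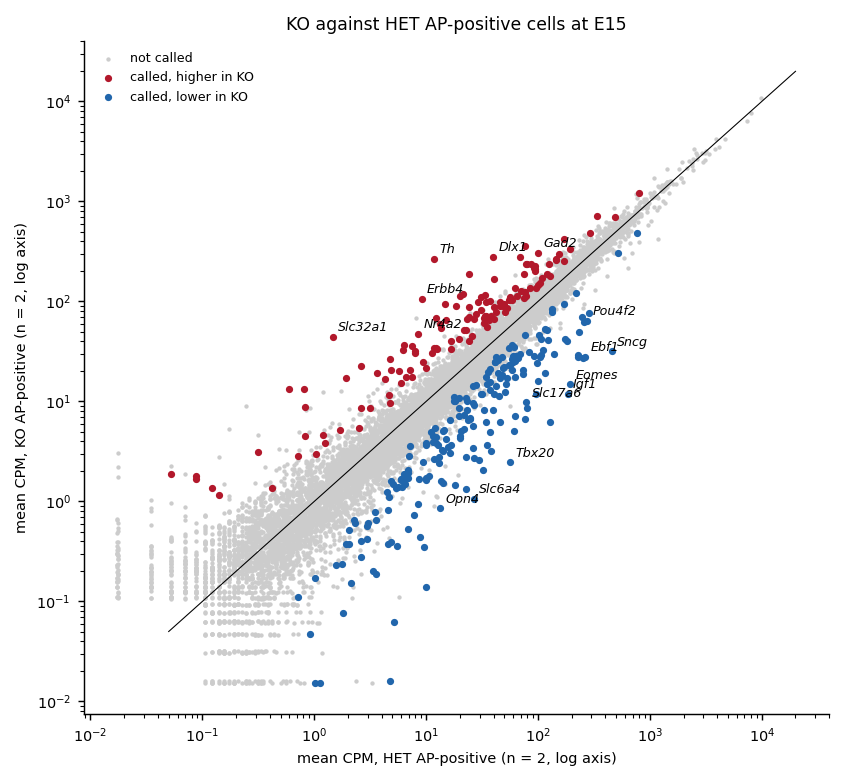
Mean CPM of each tested gene in KO cells and in HET cells of E15 retina, on log axes, with called genes coloured by direction and genes at 0 in either group left out, as well as those at no more than 0.1 CPM in both. Th, Slc32a1, Erbb4 and Dlx1 lie on the KO side of the diagonal and Eomes, Tbx20, Sncg and Igf1 on the HET side.

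Adhesion genes split both ways, with 5 higher and 7 lower of 63. Without KO replicate 2, 3 were higher and none lower, and without HET replicate 1, 2 were lower. Cntn4, a contactin that guides ganglion cell axons to the accessory optic system, had 35.9 and 29.6 CPM in KO cells, 7.18 and 5.17 CPM in HET cells and 22 and 11.4 CPM in KO and HET SN and rose by 2.40 ± 0.33, adjusted p = 0.00193, and Cntn1 rose by 1.19. Cntn5 had 2.19 and 1.38 CPM in KO cells, 14.9 and 6.36 CPM in HET cells and 4.48 and 3.46 CPM in KO and HET SN and fell by 2.58 ± 0.40, adjusted p = 0.00444. Chl1, a relative of the adhesion molecule L1, had 25.6 and 12.7 CPM in KO cells, 135 and 96.9 CPM in HET cells and 26.4 and 16.2 CPM in KO and HET SN and fell by 2.60 ± 0.42, adjusted p = 0.00543. No axonal cytoskeleton gene, no kinesin or dynein gene, no guidance ligand, no microglial marker, no DNA replication gene and no photoreceptor marker was called between KO and HET cells. The medians of these lists were 0.04, -0.07, 0.27, -0.32, -0.43 and -0.01.

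Because HET and KO cells were compared with the same SN libraries, genes that were called in both with opposite signs are given with their values only. There were 28 of them. Irx1, an Iroquois factor, had 0.127 and 0.153 CPM in KO cells, 11.9 and 8.04 CPM in HET cells and 0.652 and 0.698 CPM in KO and HET SN. Oprm1, the mu-opioid receptor, had 0.0317 and 0.0917 CPM in KO cells, 3.87 and 6.43 CPM in HET cells and 0.539 and 0.307 CPM in KO and HET SN. Ppef1, a phosphatase, had 0.698 and 0.183 CPM in KO cells, 11.1 and 6.47 CPM in HET cells and 1.53 and 2.18 CPM in KO and HET SN, and Tmem27, a membrane protein, had 0.476 and 0.275 CPM in KO cells, 6.38 and 2.83 CPM in HET cells and 1.81 and 1.20 CPM in KO and HET SN. In all 4 genes HET cells were above SN and KO cells below it. Sncg, Irx6, Opn4, Synpr, Palm2 and P2rx3 belong to the same kind, with the values given above, and Ctxn3 had 0.285 and 0.0917 CPM in KO cells, 4.39 and 2.69 CPM in HET cells and 0.879 and 0.502 CPM in KO and HET SN. Slc32a1 and Cntn4 ran the other way, KO cells above SN and HET cells below.

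Set against their own SN library, the KO cells stood less apart. With the 2 SN libraries kept as separate groups, 644 genes were called for KO cells over KO SN, 588 higher and 56 lower. HET cells over HET SN had 2504, 1928 higher and 576 lower. In KO SN, ganglion cell markers summed to 5954 CPM against 4110 CPM in HET SN, and Cacna1i, a calcium channel subunit, shows the pattern in 1 gene, with 34.1 and 33.4 CPM in KO cells, 14.7 and 11.7 CPM in HET cells and 7.34 and 1.09 CPM in KO and HET SN. A lone SN library is assumed in that fit to vary like the replicated groups. Between the KO SN and HET SN libraries, genotype cannot be told apart from replicate number or Y-linked level.

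The last comparison set the E15 enrichment beside that of the same locus at P3, where 4 Brn3b AP-positive libraries (2 KO and 2 HET) were compared with 4 SN libraries, 2 of them from Brn3a retinas and 2 from Brn3b retinas. At P3, 5010 genes were called between AP-positive cells and SN, 29.6% of those tested (16.8% higher and 12.7% lower). The enrichment itself differed between the ages for 1165 genes, 6.87% of those tested, 536 with a larger log2 difference at E15 (3.16%) and 629 with a smaller one (3.71%). The median over all genes was -0.05. Without the HET SN library of E15 the count was 154, and without the KO SN library it was 2356.

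Guidance genes included members whose E15 enrichment exceeded that at P3. Of 39 guidance receptors 8 had a larger enrichment at E15 and none a smaller one (median 0.25), and of 35 guidance ligands 5 and none (median 0.53). With the Brn3b libraries alone, which leaves out the Brn3a SN, 1 receptor and no ligand had a larger enrichment at E15, and without HET SN 2 and none did. The counts were 5 and 3 without HET replicate 1, 4 and 3 without KO replicate 1 and 13 and 12 without KO SN, and 2 ligands were larger without KO replicate 2. Nrp1 averaged 128 CPM in E15 AP-positive cells and 37.2 CPM in E15 SN, against 78.5 CPM in P3 AP-positive cells and 69.1 CPM in P3 SN, a difference of enrichments of 1.61 ± 0.23, adjusted p = 0.00318. Dcc averaged 294 and 71.5 CPM in E15 AP-positive cells and SN, against 35.1 and 28.9 CPM at P3, and differed by 1.63 ± 0.35, adjusted p = 0.0189. Unc5c differed by 1.47 ± 0.34, adjusted p = 0.026 and Sema6c by 1.18 ± 0.31, adjusted p = 0.0373. Cntn2 averaged 1093 and 179 CPM at E15 in AP-positive cells and SN, against 28.5 and 9.45 CPM at P3, and its enrichment differed by 1.20 ± 0.30, adjusted p = 0.0315. Mfng and Nhlh1, genes of newborn neurons, differed by 1.83 ± 0.23, adjusted p = 0.00136 and 1.75 ± 0.45, adjusted p = 0.0359. The proneural list that holds both went both ways, with 4 of 22 genes larger and 4 smaller at E15 (median 0.18). With the Brn3b libraries alone 2 were larger and 2 smaller.

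Other enrichments were smaller at E15. Of 24 photoreceptor markers 8 were smaller and none larger (median -1.72), and the median over the list was 0.54 at P3. The 8 became 1 without HET SN, 4 without KO replicate 2 and 5 without HET replicate 1 or KO replicate 1. Otx2 averaged 87.1 and 280.5 CPM in E15 AP-positive cells and SN, against 694 and 679 CPM at P3, and differed by -1.71 ± 0.48, adjusted p = 0.0481. Prdm13 differed by -2.73 ± 0.32, adjusted p = 0.00121 and Ptf1a by -2.09 ± 0.45, adjusted p = 0.0185. Of the 22 amacrine markers, to which both belong, 5 had a smaller and 4 a larger enrichment at E15 (median -0.36). Slc17a6 averaged 44.0 and 29.2 CPM at E15 and 144 and 25.1 CPM at P3 in AP-positive cells and SN, a difference of -2.19 ± 0.45, adjusted p = 0.0157. The enrichment of Pou4f2 differed by -1.05 ± 0.40, adjusted p = 0.126 and that of Pou4f3 by -2.55 ± 0.71, adjusted p = 0.0473. Of the 24 ganglion cell markers 1 was larger and 2 smaller at E15 (median -0.23). With the Brn3b libraries alone none was larger or smaller, and the median was 0.08. None was smaller without HET SN, 6 were without HET replicate 1 and 4 without KO replicate 1.

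In the cell cycle lists no gene was called between the ages. None of 42 mitosis genes (median -0.01) and none of 33 DNA replication genes (median -0.15) had an enrichment called different. Against SN, 41 and 25 of them fell at E15 and 42 and 28 at P3, where the medians were -1.34 and -1.13. Of 31 microglial markers 4 had a smaller enrichment at E15 and none a larger one, with a median of 0.47, and Cd68, Sall1 and Cybb were among the 4. The number was 1 without HET SN and 2 without HET replicate 1, KO replicate 1 or KO replicate 2. The enrichment of 4 of 10 erythroid genes was smaller, of none without HET SN and of 2 without KO replicate 1, Hba-a2 averaging 2.29 and 53.6 CPM in E15 AP-positive cells and SN against 7.53 and 6.74 CPM at P3.

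**Figure D5:**
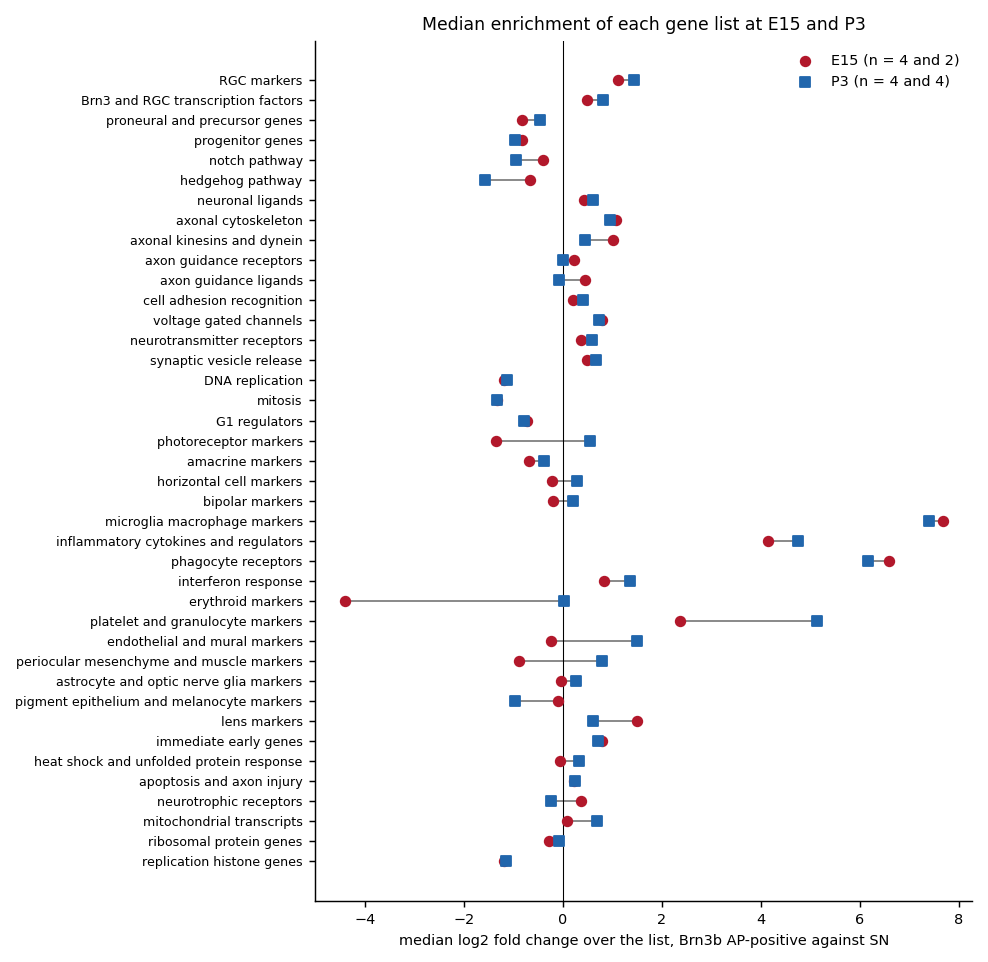
Median log2 difference between AP-positive cells and SN for each gene list, at E15 (red) and at P3 (blue). The lists of microglia and mitosis lie together at both ages, and photoreceptor markers lie apart, at -1.36 at E15 and 0.54 at P3.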

How the data were processed

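The members and the gene lists were chosen with earlier results of these data known. The authors deposited estimated counts per transcript for 27 libraries. Build GRCm38.p3 and, without their roles, eXpress 1.3.1, Bowtie2 2.2.1 and Trimmomatic 0.32 are given per the submitters' processing notes. Per the labels' protocols, RNA of bead-bound and unbound retinal cells went into stranded mRNA libraries that were sequenced single-end. Whether counting used strand is not given in the sources used here, so values of overlapping, antisense and near-identical genes (the globins, for example) are uncertain.

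The 88198 transcripts were added up to 30735 gene IDs and rounded to whole counts. 27 symbols stored as dates were restored, and 104 symbols had more than 1 gene ID, of which list counts used the one with the highest count. The 18 retinal libraries were fitted together in edgeR 4.0.16 (R 4.3.3) with TMM scaling, filterByExpr (minimum count 10) and quasi-likelihood F-tests, with 10 residual degrees of freedom and a coefficient of variation of 27.8%. Genes were called at a Benjamini-Hochberg adjusted p below 0.05, and ± marks the standard error of the log2 difference. Alternatives were DESeq2 1.42.0, DESeq2 size factors, no filter, E15 libraries alone, SN kept apart by genotype, a replicate block and leaving out each library, and, chosen after seeing the data, the Brn3b retinal libraries alone. The fit was checked on simulated counts.

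Genes are named by a rule: the Brn3 genes, the largest and the most abundant called genes of each comparison, called genes of opposite sign, from each of 40 gene lists at most 6 members, taken by adjusted p,, and members of the ganglion cell, Brn3 network, proneural, hedgehog, amacrine, microglial, erythroid and Y-linked lists. Epha3, Epha8, Fos, Jun, Plk1, Inpp4b and Gm14303 were named after their values were seen, and some genes under the rule are not reported here. Differences between replicates 2 and 1 had a correlation of 0.423 between KO and HET cells over 10752 genes. With SN the correlations were 0.348 for KO cells and 0.095 for HET cells. These 2 cannot decide on pairing, because SN replicates 1 and 2 also differ in genotype. Numbers were not taken as pairs in the main fit, and totals with the number as a block are given below. Promoter windows of 27025 genes came from RefSeq, and 11764 tested genes had one.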

Additional observations from a re-analysis of the deposited data

Results flagged for a closer look

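The enrichment of AP-positive cells over SN differed between E15 and P3 for 1165 genes, by a test of the difference itself in edgeR. No group of E15 libraries has more than 2 samples, and none was tested for an outlying library.

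Among the called genes with at least 10 CPM in some group, the largest positive differences (E15 enrichment minus P3 enrichment, log2) were 8.87 for Spint1, 5.24 for Ccl27a, 3.93 for Dock8, 3.31 for Mt1, 3.23 for Nwd1, 2.97 for Adamts16, 2.92 for Slc11a1 and 2.77 for Trank1. The largest negative ones were -9.34 for Tagap, -5.92 for Fabp12, -5.79 for Hbb-bs, -5.33 for Pde6a, -4.84 for Hba-a2, -4.59 for Ugt1a7c, -3.86 for Myo5b and -3.64 for Wdfy4. Spint1, a protease inhibitor, averaged 4.91 CPM in E15 AP-positive cells and was at 0 in E15 SN, against 15.6 and 5.46 CPM in P3 AP-positive cells and SN. Tagap, a GTPase-activating protein of leukocytes, averaged 12.2 and 11.3 CPM at E15 and 7.94 and 0.00766 CPM at P3 in AP-positive cells and SN. Where a group is at 0 the fitted value depends on the prior count and is no measure of size. Mt1, a metallothionein, averaged 6.65 and 0.394 CPM at E15 and 19.2 and 10.9 CPM at P3 in AP-positive cells and SN. Pde6a, a subunit of the rod phosphodiesterase, averaged 0.0464 and 0.282 CPM at E15 and 13.4 and 5.06 CPM at P3.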

How the results depend on the processing

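The total of genes called in AP-positive cells over SN (4467) was within 1.5 times under DESeq2, its size factors, no filter, SN kept apart and the Brn3b libraries alone, an alternative added after seeing the data, and was 866 with E15 libraries alone. HET cells (2236) gave 3882 by DESeq2 and 534 with E15 libraries alone. KO cells (4028) gave 744 with E15 libraries alone and 644 over KO SN. KO against HET cells (335) gave 728 by DESeq2, 17 with E15 libraries alone, 2 with SN kept apart and 188 with Brn3b libraries alone. The age difference (1165) gave 2342 by DESeq2, 565 with SN kept apart and 147 with Brn3b libraries alone. Leaving out single libraries gave 686 to 4993 for AP-positive cells, 606 to 3434 for HET cells, 840 to 4792 for KO cells, 94 to 334 for KO against HET cells and 154 to 2356 for the age difference. Most lows came without HET SN, the one for KO against HET cells without KO replicate 2. The cause was not tested.

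With the replicate number as a block the totals were 4855 for AP-positive, 3079 for HET and 4467 for KO cells, 431 for KO against HET and 815 for the age difference. With the block and E15 libraries alone they were 3402, 2011, 3068 and 105. The title of the HET SN library gives replicate 2, which the block used, and its source name gives replicate 3, so these totals hold only for the number in the title.

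The named results that reversed were these. Th in HET cells over SN was 4.47 with SN kept apart and ranged from -1.28 without HET SN to 4.47 without KO SN. With SN kept apart, KO against HET compared enrichments over each genotype's own SN library, for the total given above as well. The values were -1.23 for Th, -0.25 for Gsg1l, -0.11 for Dcc, -4.78 for Inpp4b and -16.38 for Gm14303. The direct difference between KO and HET cells uses no SN library and is another quantity. Leaving out HET SN or KO SN gave -3.35 and 0.38 for Lars2 in KO cells, and -5.55 and 0.72 for the age difference of Ugt1a7c. Of the other tests of named genes under an alternative, 11468 stayed on the same side of the threshold, 1503 lost the call and 328 gained it. For results called in neither fit a change of sign was not counted, so some of the 11468 may have changed direction. Depth was similar in all libraries, and 2 SN libraries limit every comparison.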

Other observations

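Amid the many ganglion cell and amacrine genes that separated KO from HET cells, some abundant genes of general function did so as well. Gapdh, the glycolytic enzyme often used as a reference gene, had 499.9 and 477 CPM in KO cells, 679 and 859.9 CPM in HET cells and 903 and 1124 CPM in KO and HET SN and in KO cells fell by 0.66 ± 0.15, adjusted p = 0.0347 relative to HET cells. Its values also fell against SN in KO cells. Lars2, a mitochondrial leucyl-tRNA synthetase, ranged widely within groups, with 423 and 415 CPM in KO cells, 1941 and 397 CPM in HET cells and 4326 and 329 CPM in KO and HET SN. Both are values of single genes, and what they follow was not tested.

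A few neurotransmitter receptor and channel genes were called between KO and HET cells, in both directions. Cacna1d, an L-type calcium channel, was higher in KO cells, with 72.7 and 65.0 CPM in KO cells against 35.9 and 29.5 CPM in HET cells. Scn1a, a sodium channel, was lower, with 4.72 and 3.02 CPM in KO cells against 9.30 and 10.8 CPM in HET cells. Of 36 receptor subunits 4 were lower and 1 was higher in KO cells, against 1.21% lower and 0.767% higher over all genes tested. With the E15 libraries alone no receptor or channel subunit was called. Chrnb4, a nicotinic subunit, was the higher one, with 128 and 124 CPM in KO cells against 77.2 and 65.0 CPM in HET cells. Among the lower ones, Glra2, a glycine receptor subunit, had 10.2 and 4.52 CPM in KO cells against 25.7 and 17.6 CPM in HET cells and Grin2b, an NMDA receptor subunit, had 2.12 and 1.31 CPM in KO cells against 8.71 and 5.00 CPM in HET cells.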
